A study of Homo sapiens with 9 samples.

Results

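The genes described here are IDO1, IL4I1, KYNU, KMO, TDO2, AFMID, AHR, AHRR, CYP1A1 and CYP1B1, which are 10 of the 58735 genes in the count matrix. They were chosen by name as the axis that runs from tryptophan breakdown to the aryl hydrocarbon receptor, with measured values of these data, LINC00996 against control among them, used in the choice. Their values in LINC00996 against control and in LINC00996 against AP001189.3 are therefore a description, with no test. All 10 passed the filter on low counts in the 3 comparisons.

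The samples were 9 RNA-seq libraries of A549, an established human lung adenocarcinoma cell line, in 3 groups of 3. Control cells were transfected with the control plasmid, labelled PC3.1, PC3.2 and PC3.3 in the 3 libraries and read here as replicates of 1 group, the second group with a plasmid carrying the long noncoding RNA LINC00996 and the third with a plasmid carrying AP001189.3, a further long noncoding RNA. The design asks which transcripts differ when either RNA is raised. Labels do not say whether replicates were separate cultures, so p-values measure the spread between these samples, which may be technical. Nor do they give the time after transfection or the share of cells that took up a plasmid.

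Library totals ran from 15272450 counts in LINC00996 replicate 2 to 18125447 in LINC00996 replicate 1. The unit of a level, CPM, is the count divided by the library total after TMM scaling. The RNA carried by each plasmid was read first, as a check of the labels. LINC00996 stood at 287, 278 and 322 CPM in its own libraries and at 0.23 to 0.53 CPM in the other 6. AP001189.3 stood at 98.2, 126 and 143 CPM in its own libraries and at 0 to 0.12 CPM elsewhere. Every library matched its label, and reads from the plasmid and from the cell's own gene cannot be told apart.

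LINC00996 replicate 1 stood apart from its group. Its rank correlation across genes was 0.986 with replicate 2 and 0.982 with replicate 3, which had 0.994 with each other. Counts of all genes called are given with and without it, as are the values of several genes that it moved. Mitochondrial transcripts took 6.68% to 7.18% of counts in LINC00996 libraries, 5.26% to 5.66% in control and 5.32% to 5.52% in AP001189.3 libraries. Their part in the results was not tested.

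The labelled cell type was checked against marker lists. All 8 markers of a lung epithelial line had counts in every library, and summed to 12270 to 12400 CPM in control, 16050 to 18500 CPM in LINC00996 and 13400 to 14000 CPM in AP001189.3 libraries. The most abundant was KRT8, apart from LINC00996 replicates 2 and 3, where it was ALDH1A1. In LINC00996 against control 2 of the 8 were called higher, 1 lower and 5 did not pass. The lower one, KRT19, went against the sum with a log2 fold change of -0.40 (adjusted p = 0.0256, edgeR), and KRT7 had -0.04. Leukocyte markers summed to 14.2 to 22.1 CPM over 10 genes, mostly CD14. CD2 and MS4A1 were at 0 in all 9 libraries, and PTPRC, which marks all leukocytes, did not exceed 0.0651 CPM. CD14, a monocyte marker, was not at 0, nor was ITGAM, at 5.22 to 8.92 CPM over the 9 libraries. In LINC00996 against control CD14 had a log2 fold change of 0.26 and ITGAM of -0.43 (adjusted p = 0.218 and 0.127, edgeR). Summed levels of 7 hepatocyte markers were 82.6 to 86.0 CPM in control, 76.5 to 94.9 CPM in LINC00996 and 66.0 to 69.0 CPM in AP001189.3 libraries, nearly all CPS1, with APOA2 at 0 throughout. Sums over 6 fibroblast markers, led by COL1A1, were 23.4 to 26.3 CPM in control, 16.4 to 18.2 CPM in LINC00996 and 21.5 to 24.9 CPM in AP001189.3 libraries. COL3A1 went against that sum, with 2.11 to 2.74 CPM in control and 2.85 to 3.94 CPM in LINC00996 libraries (log2 fold change 0.51, adjusted p = 0.136). The 5 endothelial markers summed to 11.7 to 13.1 CPM in control, 5.26 to 6.62 CPM in LINC00996 and 7.42 to 9.58 CPM in AP001189.3 libraries, with PECAM1 or CDH5 the most abundant. The part of these marker differences in the results was not tested. In bulk RNA, fewer expressing cells and less RNA per cell cannot be told apart.

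Most tryptophan that is broken down enters the kynurenine pathway. IDO1 and TDO2 open the indole ring in its rate-limiting step, AFMID releases kynurenine, KMO hydroxylates it and KYNU cleaves the products towards NAD synthesis. IL4I1 is a secreted amino acid oxidase that turns tryptophan and phenylalanine into keto acids. Kynurenine and indole derivatives bind AHR, a transcription factor that moves to the nucleus, pairs with ARNT and switches on genes including CYP1A1, CYP1B1 and AHRR, whose product represses AHR in turn. In tumours IDO1 and IL4I1 are known for restraining T cells, and interferon gamma is a classical inducer of IDO1.

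IDO1, on chromosome 8 (39902275 to 39928444, plus strand, build GRCh38), was lower in every LINC00996 library than in any other. Control replicates 1 to 3 had 95.5, 85.3 and 104 CPM. LINC00996 replicates 1 to 3 had 15.9, 14.3 and 18.8 CPM. The log2 fold change was -2.54 ± 0.13 (SE), a level 5.81-fold lower. AP001189.3 replicates had 104, 129 and 110 CPM and overlapped the control range at its upper end.

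IL4I1, on chromosome 19 (49889654 to 49929539, minus strand), had the same order of groups. Its control libraries lay close together at 27.6, 28.9 and 27.8 CPM. The LINC00996 libraries had 5.54, 5.54 and 4.49 CPM, and the log2 fold change was -2.44 ± 0.14 (SE), a level 5.43-fold lower. In AP001189.3 libraries it stood at 35.7, 35.2 and 38.7 CPM, above all control libraries. These values rest on 1417, 271 and 1786 counts summed over the 3 libraries of control, LINC00996 and AP001189.3.

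**Figure D1:**
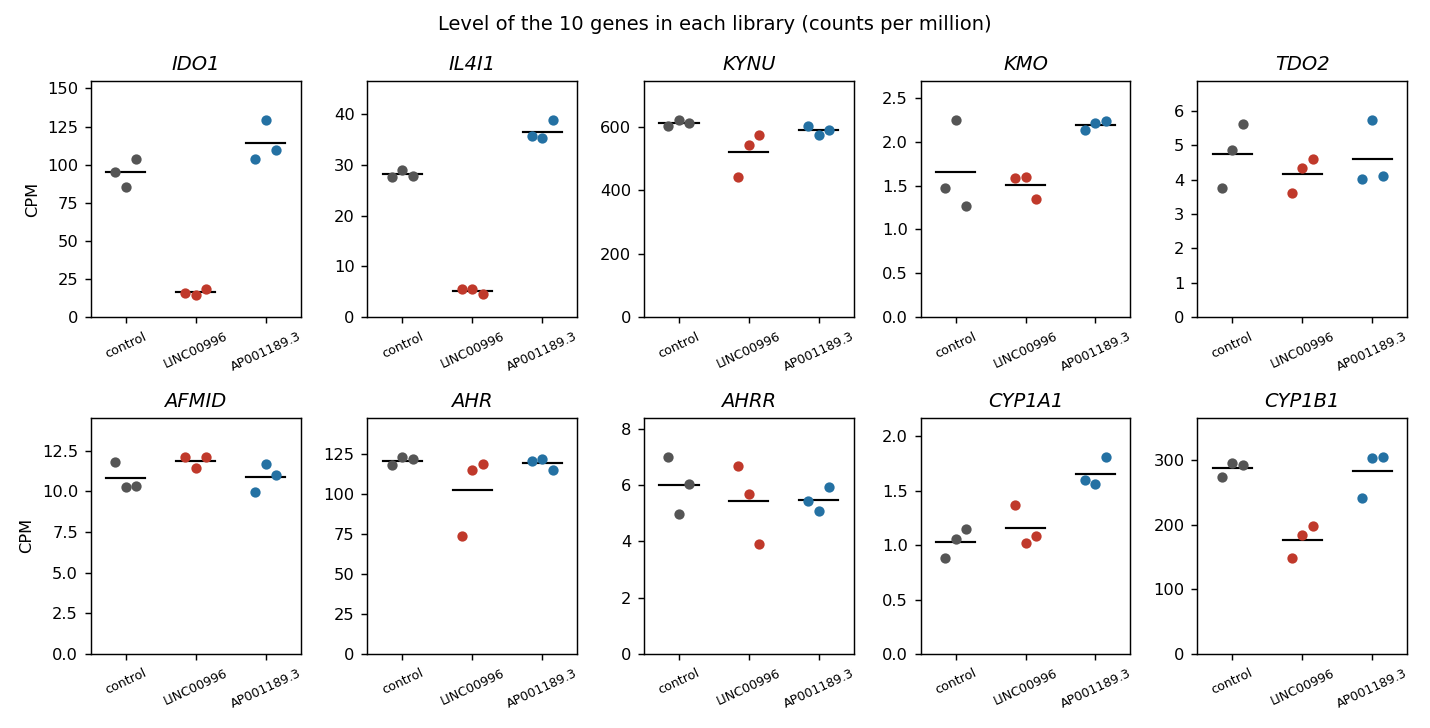
Level of each of the 10 genes in CPM (vertical axes, from 0) in the 9 libraries, 1 point per library, replicates 1 to 3 from left to right in each group and a line at the group mean. IDO1 and IL4I1 in the LINC00996 libraries lie at or below 18.8 and 5.54 CPM, far under the other 6 libraries, while TDO2, AHRR and AFMID overlap between all groups.

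The other 3 enzymes of kynurenine formation and hydroxylation had low counts. TDO2, the liver form of the ring-opening step, had 3.76 to 5.63 CPM in control and 3.62 to 4.59 CPM in LINC00996 libraries, a log2 fold change of -0.19 ± 0.21 (SE), or -0.09 without LINC00996 replicate 1. AFMID had 10.3 to 11.8 and 11.5 to 12.1 CPM, a log2 fold change of 0.13 ± 0.13 (SE). KMO had 1.26 to 2.24 and 1.35 to 1.59 CPM, from 83 and 79 summed counts with 95% Poisson intervals of 66.1 to 103 and 62.5 to 98.5. The groups overlapped for each of these 3 genes, and a modest difference in KMO was not detectable at this depth. Intervals cover counting error only.

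KYNU, by contrast, was abundant. It had 602, 621 and 614 CPM in control and 443, 545 and 575 CPM in LINC00996 libraries, with no overlap. Its log2 fold change was -0.24 ± 0.10 (SE) and -0.13 without LINC00996 replicate 1, the lowest library. AP001189.3 libraries had 575 to 602 CPM.

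AHR differed little outside LINC00996 replicate 1. Control libraries had 118, 123 and 122 CPM, and LINC00996 libraries 73.9, 115 and 119 CPM. The log2 fold change of -0.24 ± 0.15 (SE) became -0.05 when replicate 1 was left out. AHRR had 4.98 to 6.99 CPM in control and 3.89 to 6.69 CPM in LINC00996 libraries, with overlapping groups. Its log2 fold change was -0.15 ± 0.22 (SE) and -0.34 without LINC00996 replicate 1.

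The pair of AHR-responsive monooxygenases had different values. CYP1B1 had 274, 296 and 292 CPM in control and 149, 184 and 197 CPM in LINC00996 libraries. All LINC00996 libraries were below all others, and the log2 fold change was -0.71 ± 0.11 (SE), or -0.60 without LINC00996 replicate 1. CYP1A1, the gene most often read as a sign of AHR activity, was near the limit of detection at 0.88 to 1.15 CPM in control and 1.02 to 1.37 CPM in LINC00996 libraries. Its summed counts were 52 (95% Poisson interval 38.8 to 68.2) and 61 (46.7 to 78.4), so that no difference was detectable at this depth. The log2 fold change of 0.17 was 0.03 without LINC00996 replicate 1.

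In LINC00996 against control, 3 of the 10 genes were called lower and 0 higher at an adjusted p under 0.05, namely IDO1, IL4I1 and CYP1B1. Of all 16097 genes tested, 22.3% were called, 11.6% lower and 10.7% higher. That count of 3588 was 5481 without LINC00996 replicate 1, and 2094, 1925 and 2162 without control replicates 1, 2 and 3. The split over all genes was 1722 higher and 1866 lower with TMM, and 2006 higher and 1669 lower with library size alone. The groups did not overlap for 4 of the 10 genes, against 40.5% of all genes. Nothing is read from these counts, because the contrast had a part in the choice of genes. By DESeq2 the count was 3 as well.

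**Figure D2:**
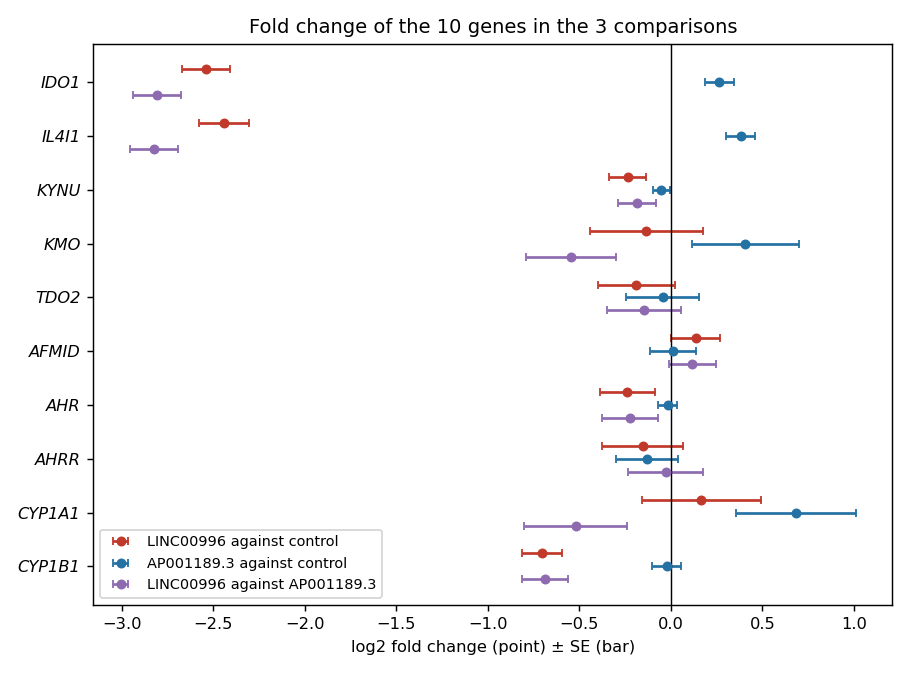
log2 fold change (horizontal axis) of the 10 genes in the 3 comparisons, with bars of 1 SE from the edgeR fit. IDO1 (-2.54) and IL4I1 (-2.44) stand apart from the other 8 genes in LINC00996 against control, and both lie above 0 in AP001189.3 against control.

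AP001189.3 against control asks whether the second RNA moves the same genes, in libraries that share their controls with the first comparison. IL4I1 rose by a log2 fold change of 0.38 ± 0.08 (SE), with an adjusted p of 0.00119 (edgeR quasi-likelihood test, Benjamini-Hochberg over all genes), and was higher in 3 of 3 AP001189.3 libraries than in any control. IDO1 had a log2 fold change of 0.27 ± 0.08 (SE) and an adjusted p of 0.0317, but the lowest AP001189.3 library lay just under the highest control library. That call was lost in 7 of 12 alternatives, over which the adjusted p ran from 0.000547 to 0.188. It did not hold without control replicate 1 (0.105), without control replicate 2 (0.136), without AP001189.3 replicate 2 (0.16) or without AP001189.3 replicate 3 (0.0522). For IL4I1 the range was 0.000425 to 0.0603, and the call was lost in the fit of all 9 libraries, in which the spread of the LINC00996 group also enters.

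The other 8 genes did not pass in AP001189.3 against control. CYP1A1 had 1.56 to 1.81 CPM, above all control libraries, with a log2 fold change of 0.68 ± 0.33 (SE) and an adjusted p of 0.151 by edgeR. KMO had 2.13 to 2.23 CPM, a log2 fold change of 0.41 ± 0.29 (SE) and an adjusted p of 0.365. The remaining 6, KYNU, TDO2, AFMID, AHR, AHRR and CYP1B1, had log2 fold changes from -0.13 to 0.01 and adjusted p from 0.467 to 0.957. With 2 of 10 genes called, both higher, the share is at the level of all 16023 genes tested, of which 19.8% were called, 11.4% higher and 8.49% lower. That count of 3180 was 1974 without control replicate 2, 1914 without AP001189.3 replicate 2 and 437 of 16560 in the fit of all 9 libraries. The split over all genes was 1819 higher and 1361 lower with TMM, and 1608 higher and 1719 lower with library size alone. Groups did not overlap for 3 of the 10 genes and for 35.2% of all genes.

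LINC00996 against AP001189.3 sets the plasmids for both RNAs side by side. IDO1 had a log2 fold change of -2.81 ± 0.13 (SE), IL4I1 of -2.83 ± 0.13 (SE) and CYP1B1 of -0.69 ± 0.13 (SE). These 3 were called lower and 0 higher, beside 21.4% of all 16095 genes called, 12.1% lower and 9.38% higher. Groups did not overlap for 6 of the 10 genes and for 39.4% of all genes. Nothing is read from these counts either, since the LINC00996 libraries are shared with the contrast behind the choice. Over all genes the split was 1510 higher and 1942 lower with TMM, and 2129 higher and 1667 lower with library size alone. The count of 3452 was 6828 without LINC00996 replicate 1, 2125 without LINC00996 replicate 2, and 1840, 1957 and 1933 without AP001189.3 replicates 1, 2 and 3.

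Levels of different genes were compared per length, in TPM, from the counts and the length given for each gene. In control libraries CYP1B1 had 179 ± 7.35 TPM (SD, n = 3), KYNU 130 ± 1.98 and IDO1 109 ± 11.3. AHR followed at 55.9 ± 1.28 TPM and IL4I1 at 41.0 ± 0.912 TPM. AFMID had 9.99 ± 0.787 TPM, TDO2 3.38 ± 0.682, AHRR 2.93 ± 0.492, CYP1A1 1.12 ± 0.152 and KMO 1.04 ± 0.32. The neighbours TDO2 and AHRR did not differ beyond their spread, nor did CYP1A1 and KMO. KYNU is counted over 17600 bases of exons, more than any other of the 10, which lowers its TPM if the main transcript is shorter.

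In LINC00996 libraries that order changed. KYNU at 104 ± 16.5 TPM and CYP1B1 at 103 ± 17.2 TPM did not differ beyond their spread. IDO1 at 17.5 ± 2.64 TPM lay below AHR at 44.6 ± 11.9 TPM. IL4I1 at 7.07 ± 0.746 TPM lay below AFMID at 10.3 ± 0.333 TPM, whereas in control it was above it. IDO1 remained the more abundant of the ring-opening enzymes, with TDO2 at 2.78 ± 0.412 TPM. In AP001189.3 libraries the order was that of the control, with IDO1 at 126 ± 15.3 and KYNU at 121 ± 2.10 TPM trading places within their spread. AHR at 53.2 ± 1.72 and IL4I1 at 51.4 ± 2.69 TPM did not differ beyond their spread there, whereas in control they did.

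**Figure D3:**
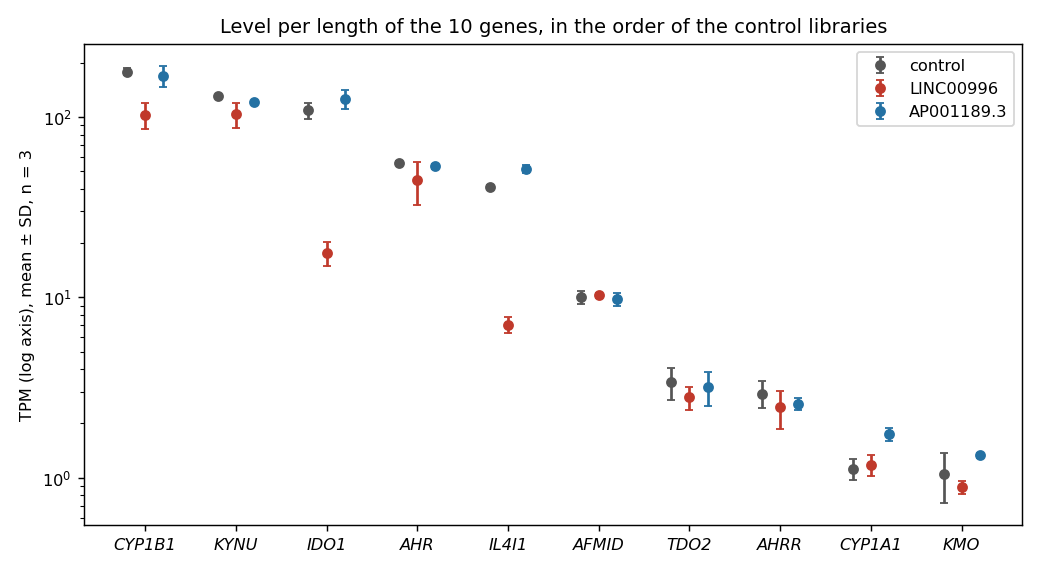
Mean level per length of the 10 genes in TPM (vertical log axis) with bars of 1 SD over the 3 libraries of each group, ordered by the control mean. IDO1 goes from 109 TPM in control to 17.5 TPM in LINC00996 libraries and IL4I1 from 41.0 to 7.07 TPM, while AFMID stays near 10 TPM.

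Overlapping annotation limits some of these values, since the strand used in counting is not given in the sources used here. IL4I1 shares 336 exon bases, 13.1% of its own, with NUP62, a nuclear pore gene on the same strand. NUP62 had 1971, 1965 and 2139 counts in control and 2356, 1625 and 1978 counts in LINC00996 libraries, a log2 fold change of -0.09 with an adjusted p of 0.572. ATF5, on the opposite strand, shares 75 exon bases with IL4I1. It had a log2 fold change of -0.44 in LINC00996 against control (adjusted p = 0.108) and rose by 0.30 in AP001189.3 against control (adjusted p = 0.026), where IL4I1 rose too. Inside IDO1 lies the intronic transcript AC007991.2, which shares none of its exon bases and fell by a log2 fold change of -2.29 (adjusted p = 0.0144), from 11 to 23 counts per control library to 1 to 6. AC007991.4, on the opposite strand, shares 120 exon bases with IDO1, 3.7% of those of IDO1. It had 2 to 10 counts per control library and 0 to 1 per LINC00996 library. KMO shares 28.4% of its exon bases with OPN3, on the opposite strand, which had 226 to 248 counts per control library against 22 to 36 for KMO. AHRR shares 3.2% with PDCD6, on the same strand, which had 1219 to 1774 counts per library against 72 to 122 for AHRR. The levels of KMO and AHRR are uncertain for that reason. CYP1B1 shares 11.3% with CYP1B1-AS1, which had no more than 60 counts in any library. AC019117.2 covers 29.4% of the exon bases of AHR and had 0 counts in all libraries.

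Promoter sequence was read for genes that bear on the pattern. Of the 10 genes, 8 matched RefSeq windows of 250 bases before to 50 after a start (build GRCh38.p14), in 9 windows. IDO1 and CYP1B1 are not among them. Motifs were searched on both strands, each only in the form given here. They were the AHR response core GCGTG, the STAT site TTCNNNGAA and the interferon response element (TTTC, any 2 bases and TTTC). The last was a narrow form of the NF-kappaB site (GGG, any 2 bases and TTTCC). Of all 35116 windows, 36.5%, 7.66%, 3.57% and 1.91% held them in that order. Among the 9 windows, 6 held the AHR core, 1 the STAT site (KYNU) and 0 the others. Below are the 250 bases before the start of an AHR target, of the member with a window that was lowest relative to control, and of WARS and IRF1, both described with the pathway lists. Capitals mark any of these motifs. Other forms of the same sites were not searched and stay in lower case, so lower case does not mean that a site is absent.
CYP1A1 (chr15:74725529-74725778, minus strand): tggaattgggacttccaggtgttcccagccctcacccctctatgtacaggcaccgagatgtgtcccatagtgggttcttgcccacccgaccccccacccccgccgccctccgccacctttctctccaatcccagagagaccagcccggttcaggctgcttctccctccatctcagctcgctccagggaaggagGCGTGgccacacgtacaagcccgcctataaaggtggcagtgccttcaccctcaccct
IL4I1 (chr19:49929505-49929754, minus strand): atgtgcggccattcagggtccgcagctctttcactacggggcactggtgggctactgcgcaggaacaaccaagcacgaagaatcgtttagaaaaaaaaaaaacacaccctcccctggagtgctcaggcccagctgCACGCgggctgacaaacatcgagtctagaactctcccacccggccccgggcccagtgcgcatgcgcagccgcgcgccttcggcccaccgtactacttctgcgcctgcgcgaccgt
WARS (chr14:100375348-100375597, minus strand): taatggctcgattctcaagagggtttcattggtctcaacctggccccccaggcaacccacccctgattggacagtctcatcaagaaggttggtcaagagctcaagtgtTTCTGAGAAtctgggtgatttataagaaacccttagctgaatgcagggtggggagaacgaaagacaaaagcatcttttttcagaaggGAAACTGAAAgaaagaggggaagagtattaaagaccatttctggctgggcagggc
IRF1 (chr5:132490774-132491023, minus strand): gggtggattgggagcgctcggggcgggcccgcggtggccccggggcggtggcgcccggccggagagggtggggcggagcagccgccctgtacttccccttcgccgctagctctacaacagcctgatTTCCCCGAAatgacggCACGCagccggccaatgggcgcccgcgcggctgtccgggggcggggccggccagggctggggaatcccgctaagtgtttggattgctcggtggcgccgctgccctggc
In CYP1A1 the capitals are the AHR core. The IL4I1 window is listed for NUP62 as well, so it is a start both genes share, and holds the AHR core on the opposite strand alone. Whether the reads of IL4I1 came from this start was not tested. The WARS window holds the STAT site and, nearer to the start, the interferon element on the opposite strand. IRF1 holds a STAT site followed by the AHR core on the opposite strand. Of the 17 windows in the list of WARS, tryptophan uptake and charging, 5 held the STAT site and 1 the interferon element. Of the 22 in that of IRF1, inducers and regulators of IDO1, 3 held the STAT site and 2 the interferon element. Most windows of either list thus held neither. A match describes the letters and is no evidence of binding.

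Other genes of the axis were taken from 7 lists by function, 81 genes in all. In LINC00996 against control 66 were tested, of which 10 rose and 25 fell. The share called was 53%, beside 22.3% of all genes, and the median log2 fold change was -0.21, beside 0.01 over all genes. The number called was 23 without control replicate 2 and 43 without LINC00996 replicate 1 in place of 35, and 8 were also changed by a log2 fold change of at least 1. The count of each list below is to be read beside the 22.3% of all genes. Nothing particular to the lists is claimed, since they were drawn up with earlier results known.

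Among genes for tryptophan uptake and charging, 3 of 6 tested fell, and the other 3 did not pass. Of those, SLC3A2 had -0.17 (adjusted p = 0.288) and, without LINC00996 replicate 1, -0.32 (6.32e-05), while SLC36A4 had 0.14 (0.583) and 0.33 (0.0124). SLC6A14, an importer of neutral and basic amino acids, had 60.7, 61.5 and 54.0 CPM in control and 12.0, 14.5 and 16.7 CPM in LINC00996 libraries. Its log2 fold change was -2.03 ± 0.14 (SE; adjusted p = 2.36e-06, edgeR). WARS, the cytoplasmic enzyme that loads tryptophan onto its tRNA and is itself induced by interferon gamma, had 391, 354 and 355 CPM in control and 118, 117 and 138 CPM in LINC00996 libraries. Its log2 fold change was -1.56 ± 0.10 (SE; adjusted p = 1.73e-06). SLC7A5, the exchanger that imports tryptophan, fell by a log2 fold change of -0.46 ± 0.09 (SE; adjusted p = 0.00282). The mitochondrial enzyme WARS2 had a log2 fold change of 0.06 and an adjusted p of 0.861.

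Of the downstream enzymes of the kynurenine and NAD pathways, 11 were tested, of which 1 rose and 2 fell. That share of 27.3% is near the 22.3% of all genes called, and nothing is read from the count. AADAT, which makes kynurenic acid from kynurenine, rose by a log2 fold change of 0.59 ± 0.17 (SE; adjusted p = 0.0274), and NAMPT, the salvage enzyme of NAD synthesis, fell by -0.42 ± 0.11 (SE; adjusted p = 0.0172). NADK, which phosphorylates NAD, fell by -0.36 ± 0.11 (SE; adjusted p = 0.036). The AADAT call was lost in 3 of 12 alternatives, without control replicate 1 (0.104), control replicate 2 (0.12) or LINC00996 replicate 2 (0.121). NAMPT was lost without control replicate 1 (0.0523), 2 (0.0841) or 3 (0.0857), and NADK without any control replicate (0.0678 to 0.154) and without LINC00996 replicate 2 (0.141) or 3 (0.0813), and with library size alone (0.0505). HAAO, ACMSD and QPRT, the steps that follow KYNU, did not pass the filter on low counts, with no more than 0.55 CPM in any library. Of these, QPRT was not tested but had higher values in LINC00996 libraries. It had 0 to 0.12 CPM in control and 0.32 to 0.55 CPM in LINC00996 libraries, from 4 and 25 summed counts. IDO2, the relative of IDO1, had 0.29 to 0.88 CPM in control and 0.11 to 0.22 CPM in LINC00996 libraries and was not tested there. In the serotonin and tryptamine branch 3 of 8 genes were tested and 0 passed by edgeR, with 0 at an unadjusted p under 0.05 and 0 by DESeq2, and TPH2 was at 0 in all libraries.

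Of 10 AHR partners and chaperones tested, 2 rose, 2 fell and 6 did not pass. The share called was 40%, beside 22.3% of all genes. Of the 6, PTGES3 had 0.21 (adjusted p = 0.195, edgeR) and, without LINC00996 replicate 1, 0.31 (0.000226), while SRC had -0.05 (0.785) and -0.18 (0.0174). HSP90AA1, which holds AHR in the cytoplasm, had 869, 903 and 946 CPM in control and 1198, 1362 and 1453 CPM in LINC00996 libraries, a log2 fold change of 0.56 ± 0.09 (SE; adjusted p = 0.00113). HSP90AB1 rose by 0.27 ± 0.08 (SE; adjusted p = 0.0354), a call that was lost without any control replicate (0.0844 to 0.178), without LINC00996 replicate 2 (0.117) or 3 (0.0961) and without a filter (0.0643). NCOA1, a coactivator, fell by -0.42 ± 0.10 (SE; adjusted p = 0.0134), and was lost without control replicate 1 (0.0698) or 2 (0.0903). ARNT, the nuclear partner, had 50.6 to 61.6 and 45.7 to 54.9 CPM and an adjusted p of 0.362. TIPARP, an AHR target that also restrains AHR, fell by a log2 fold change of -0.39 ± 0.11 (SE; adjusted p = 0.0266), a call lost without any control replicate (0.0842 to 0.112) and without LINC00996 replicate 2 (0.053).

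Further AHR target genes did not share a direction. Of 13 tested, 4 rose and 7 fell. ALDH3A1, an aldehyde dehydrogenase, rose from 520, 510 and 546 CPM in control to 2193, 1475 and 1352 CPM in LINC00996 libraries, a log2 fold change of 1.67 ± 0.15 (SE; adjusted p = 1.85e-05). PTGS2, the inducible prostaglandin synthase, fell from 2150, 2166 and 2090 CPM to 826, 1139 and 1194 CPM, a log2 fold change of -1.02 ± 0.12 (SE; adjusted p = 0.000131). EREG and IL1B, a growth factor and an inflammatory cytokine, fell by log2 fold changes of -0.84 and -1.12, with adjusted p of 0.00079 and 0.000973. NQO1, ABCG2 and VAV3 rose, and UGT1A1, STC2, SLC7A5 and TIPARP fell. Many of these genes also respond to other regulators, and AHR activity was not measured.

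Of 14 inducers and regulators of IDO1, 10 fell and the other 4 did not pass, among them IRF9 and BIN1 with log2 fold changes of 0.23 and 0.35. IRF1, the transcription factor through which interferon gamma induces IDO1, had 185, 177 and 196 CPM in control and 99.7, 90.2 and 89.2 CPM in LINC00996 libraries, a level 2.005-fold lower (SE 0.09 on the log2 scale; adjusted p = 2.07e-05). IFNGR2, a chain of the interferon gamma receptor, had 127, 128 and 115 CPM in control and 62.6, 63.0 and 64.8 CPM in LINC00996 libraries, a log2 fold change of -0.96 ± 0.09 (SE; adjusted p = 2.9e-05). IL6, an inflammatory cytokine, fell by -2.14 ± 0.23 (SE; adjusted p = 7.14e-05), and RELA, a subunit of NF-kappaB, by -0.80 ± 0.10 (SE; adjusted p = 0.000195). IFNGR1, JAK2, NFKB1, STAT3, SOCS1 and SOCS3 made up the rest. The SOCS1 call was lost without control replicate 1 (0.109), control replicate 2 (0.0907) or LINC00996 replicate 3 (0.0753). SOCS3 was lost without any control replicate (0.0778 to 0.124) and without LINC00996 replicate 2 (0.133) or 3 (0.0794), and STAT3 without control replicate 2 (0.061) or LINC00996 replicate 2 (0.0662).

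Of 11 genes of the response to amino acid shortage, which senses uncharged tRNA, 3 rose and 3 fell. TRIB3 fell by a log2 fold change of -0.57 ± 0.09 (SE; adjusted p = 0.00104), and PSAT1, a serine synthesis enzyme, rose by 0.59 ± 0.10 (SE; adjusted p = 0.00121). The other 4 calls were lost in some alternatives, and some genes gained a call. DDIT3 was lost in 8 of 12 alternatives, by DESeq2 (0.061) and without any control replicate (0.0758 to 0.183) or LINC00996 replicate 2 (0.154) or 3 (0.118) among them. PHGDH was lost without any control replicate (0.0602 to 0.168) or LINC00996 replicate 1 (0.0621) or 2 (0.0878). CHAC1 was lost without control replicate 1 (0.122) or 3 (0.111) or LINC00996 replicate 3 (0.063), and DDIT4 without control replicate 2 (0.0862) or 3 (0.132) or LINC00996 replicate 1 (0.185). SESN2 (-0.44, adjusted p = 0.0568) passed in 5 of 12 alternatives, by DESeq2 (0.0495) and without LINC00996 replicate 1 (0.000706) among them, and GCN1 (-0.22, adjusted p = 0.104) passed in the fit of all 9 libraries (0.0446) and without LINC00996 replicate 1 (0.000262). ATF4, the central transcription factor of this response, had an adjusted p of 0.229.

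**Figure D4:**
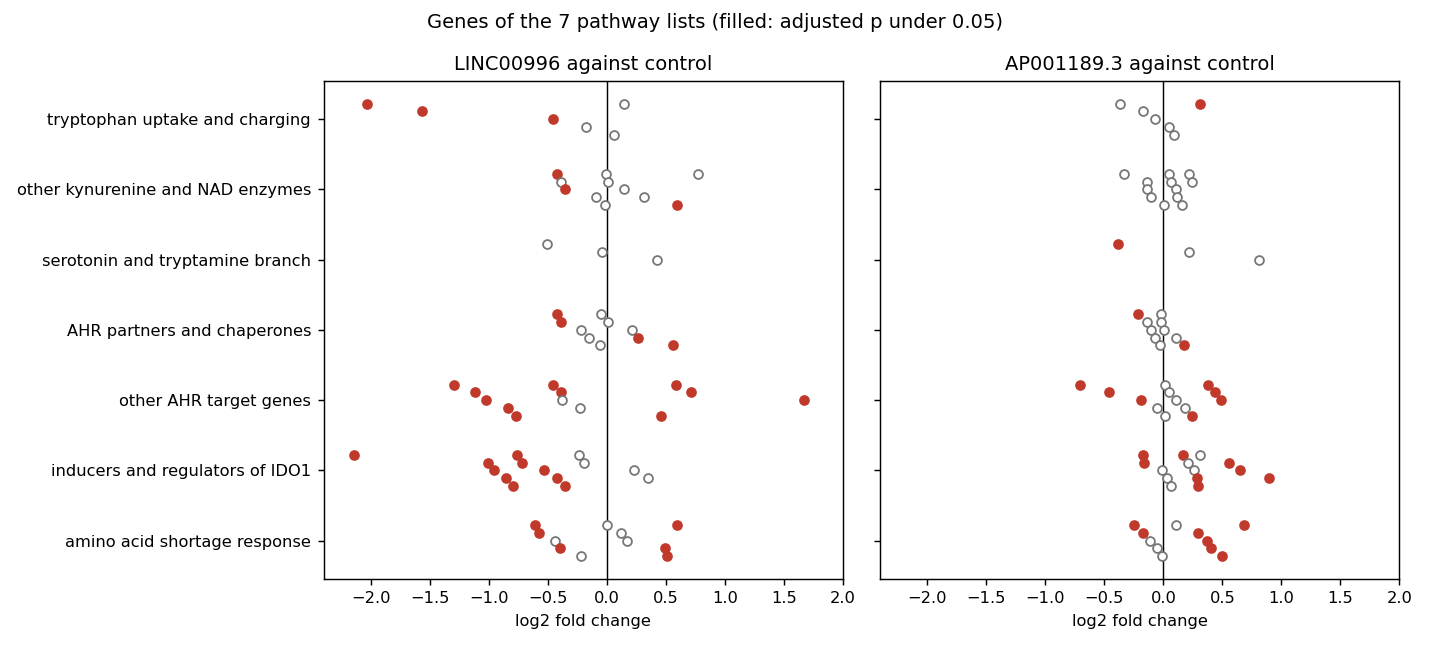
log2 fold change (horizontal axis) of the tested genes of the 7 lists in LINC00996 against control (left) and AP001189.3 against control (right), 1 point per gene, filled where the adjusted p was under 0.05. On the left, filled points for inducers and regulators of IDO1 all lie below 0 (10 of 14), and on the right 6 lie above and 2 below.

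In AP001189.3 against control 67 list genes were tested, of which 17 rose and 9 fell, 38.8% beside 19.8% of all genes. The median log2 fold change was 0.05, beside -0.0013 over all genes. None of the 26 was changed by a log2 fold change of at least 1, and the number called was 5 in the fit of all 9 libraries, 11 without control replicate 2, 14 without AP001189.3 replicate 2 and 17 without AP001189.3 replicate 3. Among inducers and regulators of IDO1, 6 of 14 rose and 2 fell by edgeR, 8 in all, and 5 passed by DESeq2. IRF1 rose to 276, 264 and 281 CPM, a log2 fold change of 0.56 ± 0.05 (SE; adjusted p = 2.54e-08), and it passed in all 12 alternatives. SOCS3 and SOCS1, feedback inhibitors of cytokine signalling, rose by 0.65 ± 0.06 and 0.89 ± 0.16 (SE; adjusted p = 2.76e-08 and 0.000158) and passed in all 12 as well. The rise of NFKB1 (0.17, adjusted p = 0.041) was lost in 9 of 12 alternatives, by DESeq2 (0.0902), without control replicate 2 (0.228) or 3 (0.0887) and without any AP001189.3 replicate (0.0984 to 0.122) among them. That of BIN1 (0.28, adjusted p = 0.0197) was lost in 4, by DESeq2 (0.0611), in the fit of all 9 libraries (0.249) and without control replicate 2 (0.0844) or AP001189.3 replicate 2 (0.135). RELA, the sixth to rise, was lost in the fit of all 9 libraries (0.0889). IFNGR1 and IFNGR2 fell by -0.16 and -0.17 (adjusted p = 0.0197 and 0.0421), calls that were lost in 4 and 6 of 12 alternatives, both without control replicate 2 (0.0689 and 0.192), AP001189.3 replicate 2 (0.168 and 0.194) or AP001189.3 replicate 3 (0.089 and 0.167). IFNGR2, with overlapping groups, was lost without control replicate 1 too (0.0923).

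WARS rose in AP001189.3 libraries to 405, 479 and 483 CPM, a log2 fold change of 0.31 ± 0.06 (SE; adjusted p = 0.00121), which was lost in the fit of all 9 libraries (0.0783). SLC6A14, at 58.4, 54.0 and 55.3 CPM, had a log2 fold change of -0.07 and an adjusted p of 0.531. ALDH3A1 rose by 0.49 ± 0.05 (SE; adjusted p = 6.1e-08), in the direction it took with LINC00996, and was lost in the fit of all 9 libraries (0.0715). ATF4 rose by 0.37 ± 0.05 (SE; adjusted p = 1.48e-05). In the other lists, 4 of 13 AHR target genes rose and 3 fell, 5 of 11 genes of amino acid shortage rose and 2 fell, and 1 of 10 AHR partners rose and 1 fell. By DESeq2 the numbers that passed were 5, 7 and 1. IL1B, with overlapping groups, and NCOA1 were each lost in 6 of 12 alternatives and UGT1A1 in 5, all of them by DESeq2 (0.0861, 0.0543 and 0.126), in the fit of all 9 libraries (0.136, 0.201 and 0.143), without control replicate 2 (0.168, 0.152 and 0.212) and without AP001189.3 replicate 2 (0.0552, 0.161 and 0.141). IL1B was also lost without control replicate 3 (0.0754) or AP001189.3 replicate 1 (0.191), NCOA1 without control replicate 1 (0.056) or AP001189.3 replicate 3 (0.0722), and UGT1A1 without AP001189.3 replicate 1 (0.172). The fit of all 9 libraries also lost PHGDH, EIF2AK4, GCN1, CHAC1, PSAT1, SRC, CYP2S1, PTGS2, VAV3 and STC2 (0.0643 to 0.339). Without control replicate 2, calls were lost for PHGDH, EIF2AK4, GCN1, DDIT4, CHAC1, SRC, CYP2S1 and PTGS2 (0.0547 to 0.112). Without AP001189.3 replicate 1 they were lost for DDIT4, SRC, CYP2S1 and VAV3 (0.0506 to 0.102), without replicate 2 for PHGDH, EIF2AK4, SRC and PTGS2 (0.0537 to 0.125), and without replicate 3 for PHGDH, EIF2AK4, GCN1 and DDIT4 (0.0552 to 0.0804). Of the serotonin branch 1 of 3 fell by edgeR and 0 passed by DESeq2. That gene, MAOA, had overlapping groups, and its call was lost in 6 of 12 alternatives, among them without control replicate 2 (0.0722) or 3 (0.151) and without AP001189.3 replicate 2 (0.14) or 3 (0.213). AANAT, of the same branch, had a log2 fold change of 0.81 (adjusted p = 0.0603, edgeR), from 69 summed counts in control and 118 in AP001189.3 libraries, with no overlap. It passed as higher in 2 of 12 alternatives, a minimum of 10 counts per library (0.0408) and without control replicate 2 (0.0301). In the kynurenine and NAD list 0 of 12 passed by edgeR, with 2 at an unadjusted p under 0.05 and 0 by DESeq2. GOT2 of that list passed as lower in 3 of 12 alternatives by edgeR. These were library size alone (0.0427), the replicate block (0.0421) and the fit without control replicate 1 (0.014).

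**Figure D5:**
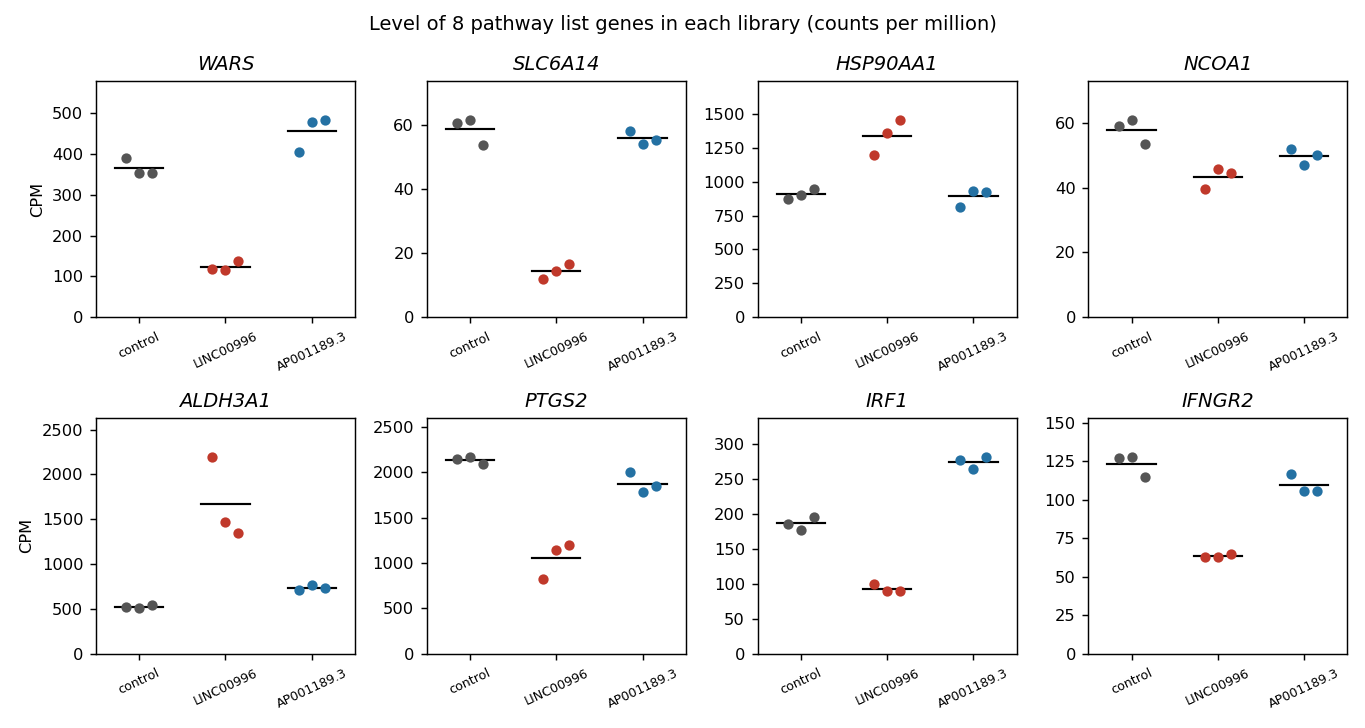
Level in CPM (vertical axes, from 0) of 8 list genes in the 9 libraries, those with the smallest adjusted p in LINC00996 against control in 4 lists, 1 point per library and a line at the group mean. WARS, SLC6A14, PTGS2, IRF1 and IFNGR2 are lowest in the LINC00996 libraries, HSP90AA1 and ALDH3A1 highest, and IRF1 in AP001189.3 libraries (264 to 281 CPM) lies above control (177 to 196 CPM).

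Genes with the pattern most like that of IDO1 and IL4I1 were ranked by Pearson r of log2 CPM over the 9 libraries, among 16550 genes. For IDO1 they were IFIT3 (r = 0.997), OASL (0.996), C15orf48 (0.995), GBP5 (0.995) and IL15RA (0.995). For IL4I1 they were SOX9 (0.996), SAA2 (0.994), IL18BP (0.994), CCL22 (0.993) and S1PR1 (0.993). IDO1 and IL4I1 had an r of 0.985 with each other. The 9 points fall into 2 clusters, the LINC00996 libraries and the rest, so r mostly measures that gap, and 5.8% of genes exceeded 0.9 with IDO1. Without LINC00996 replicate 1, 3 of the 5 genes were again among the first 5 for IDO1 and 0 of 5 for IL4I1.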

How the data were processed

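RNA from 9 A549 libraries (3 control, 3 LINC00996, 3 AP001189.3) was sequenced by the study. The authors deposited raw read counts per gene, and their processing notes name HISAT2 2.0.5, featureCounts 1.5.0-p3 and GRCh38, but not the strand used in counting. Gene lengths in the same table gave TPM. The authors' FPKM tables were not used here. The notes also name DESeq2 1.20.0 and edgeR 3.22.5.

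Counts were tested with edgeR 4.0.16 (filterByExpr, TMM, robust quasi-likelihood) on 6 libraries per comparison, with Benjamini-Hochberg adjustment over all genes and a threshold of 0.05. Alternatives were DESeq2 1.42.0, library size alone, no filter, a minimum of 10 counts per library, 1 fit over the 9 libraries, the replicate number as a block, leaving out each library, and a log2 fold change of at least 1. The steps were tested on simulated data. Log2 CPM used a prior count of 2. Totals of 15272450 to 18125447 set the counting error.

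Members and lists were chosen with earlier results of these data known. Named were the 10 members, the plasmid RNAs, genes overlapping a member, 5 genes most like IDO1 and 5 most like IL4I1, and, per list, mainly the 4 passing genes with the smallest adjusted p in LINC00996 against control, besides list genes described as a group. Other list genes (WARS2, ARNT, ATF4, IDO2, IRF9, BIN1, MAOA, AANAT, SLC3A2, SLC36A4, SESN2, GCN1, EIF2AK4, SRC, CYP2S1, PTGES3, GOT2) were named for their roles or their values, after these were seen. So were the markers COL3A1, KRT19, KRT7 and ITGAM. Promoters are from RefSeq (GRCh38.p14), and overlaps were read from GENCODE 29.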

Additional observations from a re-analysis of the deposited data

How the results depend on the processing

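The number of the 10 genes called in LINC00996 against control (3) was 2 to 4 over all alternatives, and in LINC00996 against AP001189.3 (3) it was 2 to 3. Nothing is read from either, since the choice of genes used these values. In AP001189.3 against control (2) it was 1 with library size alone, 0 in the fit of all 9 libraries, 0 with a log2 fold change of at least 1 and 1 to 2 with a library left out. List genes called in LINC00996 against control (35) numbered 8 with a log2 fold change of at least 1 and 23 to 43 with a library left out. In AP001189.3 against control (26) they numbered 5 in the fit of all 9 libraries, in which 437 of all 16560 genes were called in place of 3180 of 16023, 0 with a log2 fold change of at least 1 and 11 to 27 with a library left out. Fits with a library left out hold fewer libraries, and the fit of all 9 includes the wider spread of the LINC00996 group. In LINC00996 against control, the fit of all 9 called 4659 of 16560 genes in place of 3588 of 16097. The causes of the lost calls, with library size alone too, were not tested.

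With replicate number as a replicate block, the count for the 10 genes was 3 in LINC00996 against control, 3 in LINC00996 against AP001189.3 and 1 in AP001189.3 against control. For list genes it was 37 in LINC00996 against control and 27 in AP001189.3 against control. Of all genes, 4500 were called with the block in LINC00996 against control in place of 3588. The block gave 3466 in AP001189.3 against control in place of 3180, and 3772 in LINC00996 against AP001189.3 in place of 3452. Deviations of same-numbered libraries correlated at -0.0204 to 0.149, and those of differently numbered libraries at -0.123 to 0.045. Whether the numbers pair the libraries was not settled, and the main fits do not use them.

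Of 792 alternatives for single list genes in LINC00996 against control, which were chosen after seeing the data, 721 stayed on their side of the threshold, 53 lost the call and 18 gained it. Values that passed changed sign in 0, while some that did not pass did change sign. For AP001189.3 against control the numbers were 716, 79 and 8 of 803, and again 0 values that passed changed sign. The r of IDO1 with IL4I1 was 0.982 without LINC00996 replicate 1 and 0.984 with library size alone. Among the 10 genes, KMO and CYP1A1 rested on the fewest counts.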
